A study of Homo sapiens with 30 samples.

Results

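Circadian clock genes that are driven through E-boxes, and ARNTL, whose product acts on E-boxes, were examined in G401 cells. This line comes from a malignant rhabdoid tumor of the kidney and has lost SMARCB1, the gene for SNF5, a subunit of the SWI/SNF chromatin remodeling complex. The 10 genes PER1, PER2, PER3, CRY1, CRY2, NR1D1, NR1D2, DBP, BHLHE40 and ARNTL were chosen by name, and all 10 were found among 20367 gene symbols of the PRO-Seq table. The groups differed only in the doxycycline-inducible lentiviral construct that the cells carried, which encoded EGFP as the control, OmoMYC, a dominant-negative form of MYC, or SNF5. All cells were transduced populations of 1 line, selected with G418 beforehand, and received 1 µg/ml doxycycline for 24 h, so no group was without the drug. MYC ChIP-Seq was available for 2 samples per construct, and ATAC-Seq and PRO-Seq for 3 per construct, all from that single time point. No time course was taken, so a level reported here is a mean over whatever clock phases the cells of a culture were in. In hg19 the transcripts used were PER1 at chr17:8043788-8055753 (minus strand), PER2 at chr2:239152679-239197207 (minus strand), PER3 at chr1:7844763-7905237 (plus strand), CRY1 at chr12:107385143-107487598 (minus strand), CRY2 at chr11:45868669-45904796 (plus strand), NR1D1 at chr17:38249037-38256973 (minus strand), NR1D2 at chr3:23986751-24022109 (plus strand), DBP at chr19:49133817-49140639 (minus strand), BHLHE40 at chr3:5021097-5026865 (plus strand) and ARNTL at chr11:13299325-13408812 (plus strand).

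The mammalian clock is a feedback loop of transcription. CLOCK and the product of ARNTL (BMAL1) bind E-boxes, whose preferred form is CACGTG, and turn on the PER and CRY genes, whose proteins return to the nucleus and repress CLOCK and BMAL1. A connected loop runs through NR1D1 and NR1D2 (REV-ERBα and REV-ERBβ), nuclear receptors that are E-box targets themselves and that repress ARNTL through elements bound in competition by the ROR receptors. DBP, a PAR-domain transcription factor, and BHLHE40 (DEC1), a repressor that binds E-boxes, are further direct targets. MYC, with its partner MAX, recognizes the same CACGTG sequence, and the data allow its binding, the accessibility of the chromatin and the polymerases on the same 10 genes to be set side by side.

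MYC peaks stood next to most of these genes in the deeper of the control ChIP-Seq lists, and next to few in the other. In EGFP replicate 2, with 5396 peaks, 9 of the 10 genes had a summit within 1 kb of a listed start, and ARNTL had none; over all 15060 genes tested by PRO-Seq this held for 4511. In EGFP replicate 1, with 940 peaks, only NR1D2 had one, against 5.57% of all genes, so that NR1D2 alone was bound in both EGFP samples (5.52% of all genes). With summits up to 5 kb from a start, NR1D1 joined it (2 of 10, against 6.36%). Both OmoMYC lists held 0 peaks and only a placeholder line. Of the SNF5 lists, with 137 and 27 peaks, neither had a summit within 1 kb of any of the 10 genes (0.790% and 0.106% of all genes), and 1, replicate 1, had a summit within 5 kb of NR1D1. With 2 samples per construct, and with control lists that differ this much in length, no test was made of these numbers.

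The highest MYC peaks were at the REV-ERB genes. At NR1D1 the summit lay in an intron, 1552 bp past the start in EGFP replicate 2 with a fold enrichment over local background of 11.3, 1439 bp past it in EGFP replicate 1 with a fold of 8.64, and 1495 bp past it in SNF5 replicate 1 with a fold of 5.97. At NR1D2 it lay in an intron 713 bp past the start with a fold of 10.2 in EGFP replicate 2, and 612 bp past it with a fold of 6.23 in EGFP replicate 1. PER2 had a fold of 7.81 at 327 bp before its start, DBP 7.81 at 309 bp before, PER3 7.42 at 726 bp before, PER1 6.16 at 185 bp before, BHLHE40 5.15 at 282 bp before, CRY1 5.12 at 126 bp before and CRY2 4.51 at 260 bp past its start, each in EGFP replicate 2 only. Further peaks of that sample lay 4028 bp before PER1 (fold 7.75), 11 bp past (7.86) and 7545 bp before (6.13) the start of NR1D1, 451 bp before PER3 (3.52) and 2748 bp past the start of DBP (3.50).

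**Figure D1:**
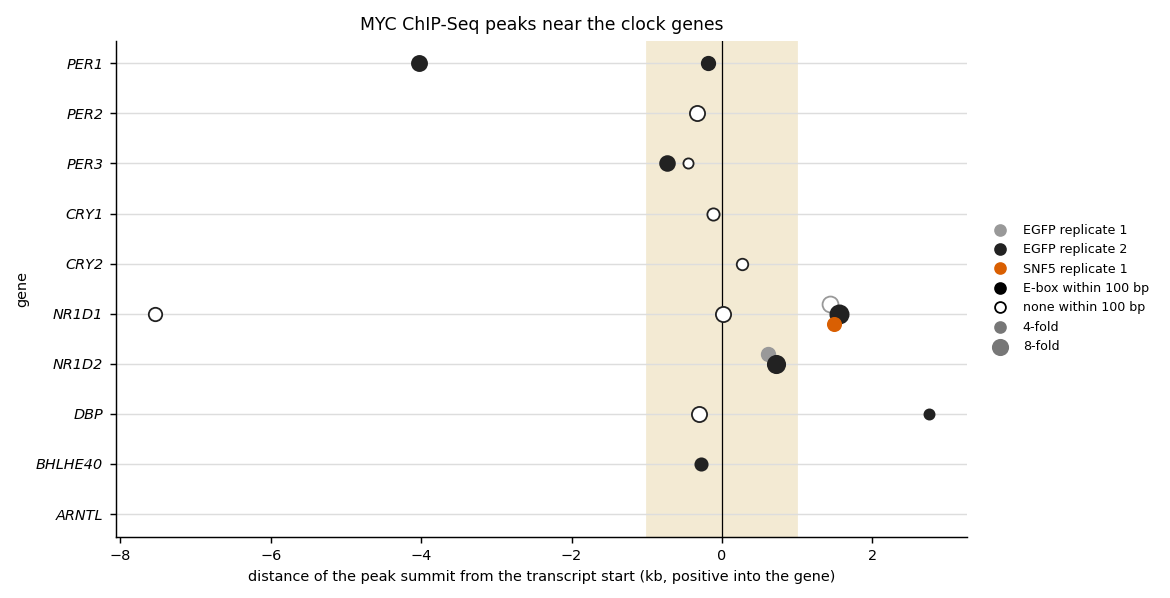
MYC ChIP-Seq peaks from 10 kb before to 10 kb after each gene, by distance of the summit from the transcript start (horizontal axis, kb) and gene (rows). Marker area follows the fold enrichment, color the sample, and filled markers have CACGTG within 100 bp of the summit; the OmoMYC lists and SNF5 replicate 2 contribute no marker, and the band marks 1 kb to each side of the start, which holds a summit for 9 of the 10 genes in EGFP replicate 2.

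Sequences under 5 of the EGFP replicate 2 summits are shown because they separate the genes with a perfect E-box under the peak from those without one. Each is the hg19 (GRCh37) sequence of 100 bases to each side of the summit, on the strand of the gene and 5′ to 3′. The PER2 window was shortened at its 3′ end, where it enters an annotated exon. Capitals mark CACGTG, which reads the same on both strands, and the variant CACGTT on either strand, the non-canonical E-box known from the PER2 promoter.
NR1D2 (chr3:23987364-23987564, plus strand, intron): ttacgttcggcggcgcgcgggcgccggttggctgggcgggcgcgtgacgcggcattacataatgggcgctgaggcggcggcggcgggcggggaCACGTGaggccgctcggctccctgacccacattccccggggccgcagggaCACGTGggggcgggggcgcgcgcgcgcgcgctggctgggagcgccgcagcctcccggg
PER1 (chr17:8055838-8056038, minus strand, upstream of the listed start and in an intron of longer transcripts): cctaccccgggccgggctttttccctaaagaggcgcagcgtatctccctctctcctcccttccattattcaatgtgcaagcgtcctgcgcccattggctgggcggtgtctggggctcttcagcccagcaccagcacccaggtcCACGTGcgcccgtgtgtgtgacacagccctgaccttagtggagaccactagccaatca
PER3 (chr1:7843937-7844137, plus strand, upstream): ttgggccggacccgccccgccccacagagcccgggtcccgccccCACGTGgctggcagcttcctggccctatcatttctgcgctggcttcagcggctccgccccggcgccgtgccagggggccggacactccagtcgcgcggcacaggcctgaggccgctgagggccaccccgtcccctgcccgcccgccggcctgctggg
PER2 (chr2:239197438-239197634, minus strand, upstream of the listed start and in an intron of longer transcripts): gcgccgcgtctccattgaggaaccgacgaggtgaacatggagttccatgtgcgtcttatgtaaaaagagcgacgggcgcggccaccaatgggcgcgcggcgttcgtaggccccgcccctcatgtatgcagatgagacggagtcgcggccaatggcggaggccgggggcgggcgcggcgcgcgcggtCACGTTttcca
DBP (chr19:49140848-49141048, minus strand, upstream): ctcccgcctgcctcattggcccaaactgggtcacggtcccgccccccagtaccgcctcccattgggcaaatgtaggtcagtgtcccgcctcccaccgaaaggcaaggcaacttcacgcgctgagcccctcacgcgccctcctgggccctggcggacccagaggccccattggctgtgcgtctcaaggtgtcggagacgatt
The DBP window held neither form, and the DBP peak farther in the gene had 2 copies of CACGTG. Of the 10 EGFP replicate 2 peaks within 1 kb of the 10 genes, 4 had CACGTG within 100 bp of the summit, and of the 14 from 10 kb before to 10 kb after them 7 did. Over all 5396 peaks of that sample the share was 26.1%, and over the 940 of EGFP replicate 1 it was 51.3%; CACGTT on either strand was under 4 of these 14 peaks and under 6.3% of all EGFP replicate 2 peaks. In the RefSeq promoters of GRCh38, of 250 bases before to 50 after a start, CACGTG was found for 3 of the 10 genes, NR1D2 and PER1 among them, against 7.26% of 35116 promoters. The first is a count of genes with the sequence in any of their promoters and the second a share of promoters, so the units differ. A match says only that these letters are in the window.

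ARNTL, the only one of the 10 that encodes an activator of the E-boxes, was also the only one without a MYC summit within 1 kb of its start in EGFP replicate 2. A short stretch of its first exon is shown, in hg19 on the plus strand from 31 to 60 bases past the listed start. Capitals mark AGGTCA on that strand, the half-site read by ROR and REV-ERB receptors. The longer windows above were not marked for it.
ARNTL (chr11:13299356-13299385): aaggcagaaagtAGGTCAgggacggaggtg
AGGTCA on either strand is in 13.8% of all RefSeq promoters, a share of promoters, and in a promoter of 3 of the 10 genes (ARNTL, CRY2 and PER1), a count of genes.

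The ATAC-Seq lists placed open chromatin at the starts of 7 of the 10 genes in every sample. PER2, PER3, CRY1, CRY2, NR1D2, BHLHE40 and ARNTL had a peak within 1 kb of a start in all 9 samples, which 36.4% of 11866 genes with GRCh38 starts had. Fold enrichment of the strongest such peak in EGFP, OmoMYC and SNF5 replicates 1, 2 and 3 in turn was 7.23, 9.32, 8.53, 6.48, 9.95, 7.98, 11.97, 10.2 and 9.11 for ARNTL, where the samples of EGFP and SNF5 overlapped. The median of the genes with a peak in all samples ran from 5.91 to 8.84 over the same 9 samples and was 8.14, 8.84 and 8.50 with SNF5 against 7.09, 7.99 and 7.28 with EGFP, so the level of a whole sample moved with the construct too. For PER2 the fold was 4.97, 6.63 and 7.23 with EGFP and 8.40, 7.73 and 6.97 with SNF5, and again the samples overlapped. BHLHE40 ran from 4.61 to 5.83 over all 9 samples, which is a narrow range.

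The other 3 genes lacked a constant promoter peak. PER1 had none within 1 kb of its starts in any of the 9 samples, and its nearest site, centred 4197 bp before the start, was present in all 9. DBP had a promoter peak in 1 of 3 EGFP samples (fold 4.14), in 3 of 3 OmoMYC samples (3.74, 4.62 and 4.84) and in 3 of 3 SNF5 samples (4.23, 5.25 and 5.71). NR1D1 had one in 0 of 3 EGFP samples, 2 of 3 OmoMYC samples (4.77 and 4.15) and 2 of 3 SNF5 samples (4.17 and 3.63), and a second site, centred 1338 bp past its start, in 2 EGFP, 3 OmoMYC and 3 SNF5 samples. The number of peaks called per sample ran from 7260 to 33596 and was 22722 or more only in SNF5 samples and OmoMYC replicate 2. These list lengths did not follow the read numbers that the paper gives. A peak that is missing from a short list was not called there, which does not show that the site was closed. The part of list length in these differences was not tested. With the 7260 highest peaks of every sample, 7, 7 and 6 of the 10 genes were open in all EGFP, OmoMYC and SNF5 samples, as were 3689, 3489 and 3558 of the 11866 genes. With every listed peak it was 7, 8 and 8, against 44.5%, 40.1% and 62.4% of all genes.

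Sites present in all 3 SNF5 samples and in 0 of 3 EGFP samples lay within 10 kb of 1 of the 10 genes, NR1D2, which had 2 of them, centred 1553 and 17583 bp past a start and absent from the OmoMYC samples. Such a site lay near 13.2% of all genes. No site near any of the 10 genes was present in all EGFP samples and absent from all SNF5 samples.

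**Figure D2:**
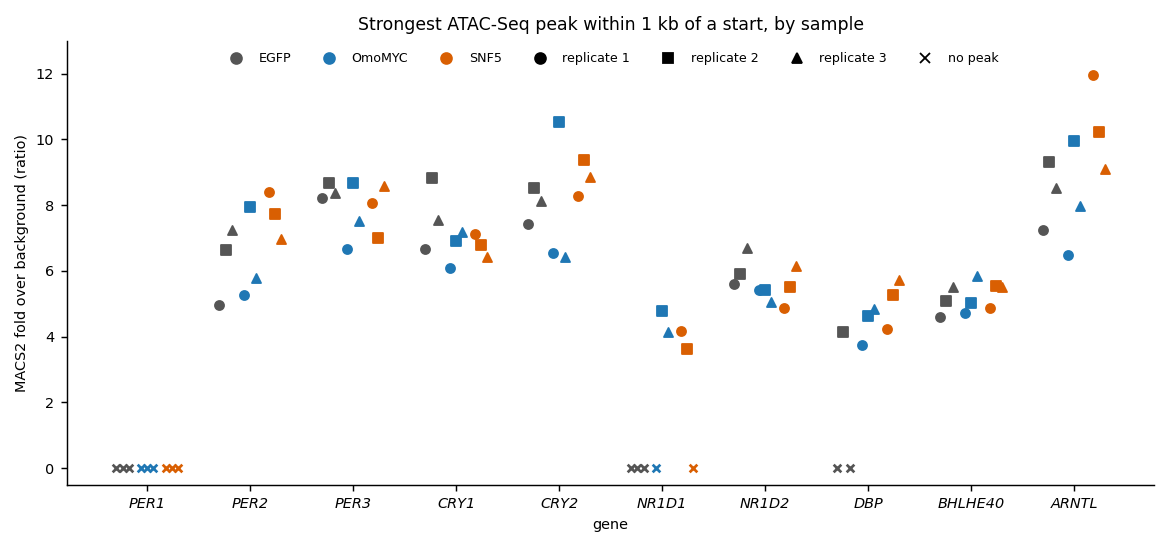
Fold enrichment (vertical axis, ratio over local background as the peak caller gave it) of the strongest ATAC-Seq peak within 1 kb of a start of each gene, in each of 9 samples; crosses at 0 mark samples without a peak. ARNTL and CRY2 hold the highest points, PER1 has crosses only, and NR1D1 and DBP have crosses mostly in EGFP samples.

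PRO-Seq, which maps engaged RNA polymerases by a nuclear run-on, gave raw read counts for the promoter-proximal window of each transcript, the 50 bp with most reads near the start, and for its gene body, from 1 kb past the start to the end. Libraries held from 28388012 to 46859674 gene body reads, but only from 517824 to 3381190 promoter-proximal reads, with all 3 replicate 1 libraries at the low end (517824, 671718 and 660343). The labels were checked on SMARCB1: its promoter-proximal window had 0 reads in all 3 EGFP samples, 0, 2 and 0 with OmoMYC, and 429, 1757 and 602 with SNF5. VIM, the mesenchymal marker looked at, had gene body levels of 22.3 to 54.3 RPKM (reads per kb of gene body, scaled by the gene body total of the library with RLE factors). Of 3 markers each, the summed level of the blood genes stayed between 0.00407 and 0.0599, and that of the endothelial genes was 0.0392 to 0.0963 with EGFP, 0.0438 to 0.104 with OmoMYC and 0.0892 to 0.253 with SNF5, with PECAM1 at 0 in every library and CDH5 and VWF higher with SNF5 (adjusted p = 0.0091 and 0.00039). The epithelial sum was 24.8 to 42.6 with EGFP, 19.98 to 35.4 with OmoMYC and 21.4 to 35.8 with SNF5, nearly all of it from KRT18, which was lower with SNF5 and with OmoMYC than with EGFP (log2 −0.26 and −0.31, adjusted p = 0.0082 and 0.026), whereas CDH1 was 2.01-fold higher with SNF5 (adjusted p = 0.012). VIM was lower with OmoMYC (log2 −0.28, adjusted p = 0.041). Their part in the results below was not tested. Gene body reads on MYC rose with OmoMYC by 0.95 on the log2 scale (SE 0.22, adjusted p = 0.038), and such reads do not tell MYC from the MYC-derived OmoMYC construct.

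The order of the clock genes was set by gene body level in the EGFP samples, in RPKM. BHLHE40 was the most transcribed at 8.67 ± 0.59 (SD, n = 3), above 96.0% of the 15060 genes tested, and DBP followed at 7.18 ± 2.74. PER3 stood at 3.81 ± 0.43, CRY1 at 3.10 ± 2.16, PER1 at 2.75 ± 0.42, NR1D1 at 1.59 ± 0.16, CRY2 at 1.54 ± 0.19, NR1D2 at 1.46 ± 0.22 and PER2 at 1.23 ± 0.22. ARNTL was lowest at 0.0401 ± 0.010, above only 14.2% of the genes tested. Neighbours in this order that kept it in all 3 samples were DBP over PER3, PER1 over NR1D1, and PER2 over ARNTL; the other neighbours changed places in at least 1 sample and do not differ beyond their spread. The median of all genes tested was between 1.18 and 1.26 in every library.

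CRY1 was unusual among them in how its samples spread. Its gene body level was 1.79, 1.92 and 5.59 with EGFP, 2.07, 2.16 and 5.64 with OmoMYC and 1.92, 2.02 and 5.56 with SNF5 for replicates 1, 2 and 3. Replicate 3 was far above replicates 1 and 2 in every construct, whereas the constructs lay close together within a number. DBP, in contrast, was low in replicate 1 of every construct. Replicate numbers entered the main fits as a block, for the reasons given with the processing of the data. A change is read within numbers as well as between group means.

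**Figure D3:**
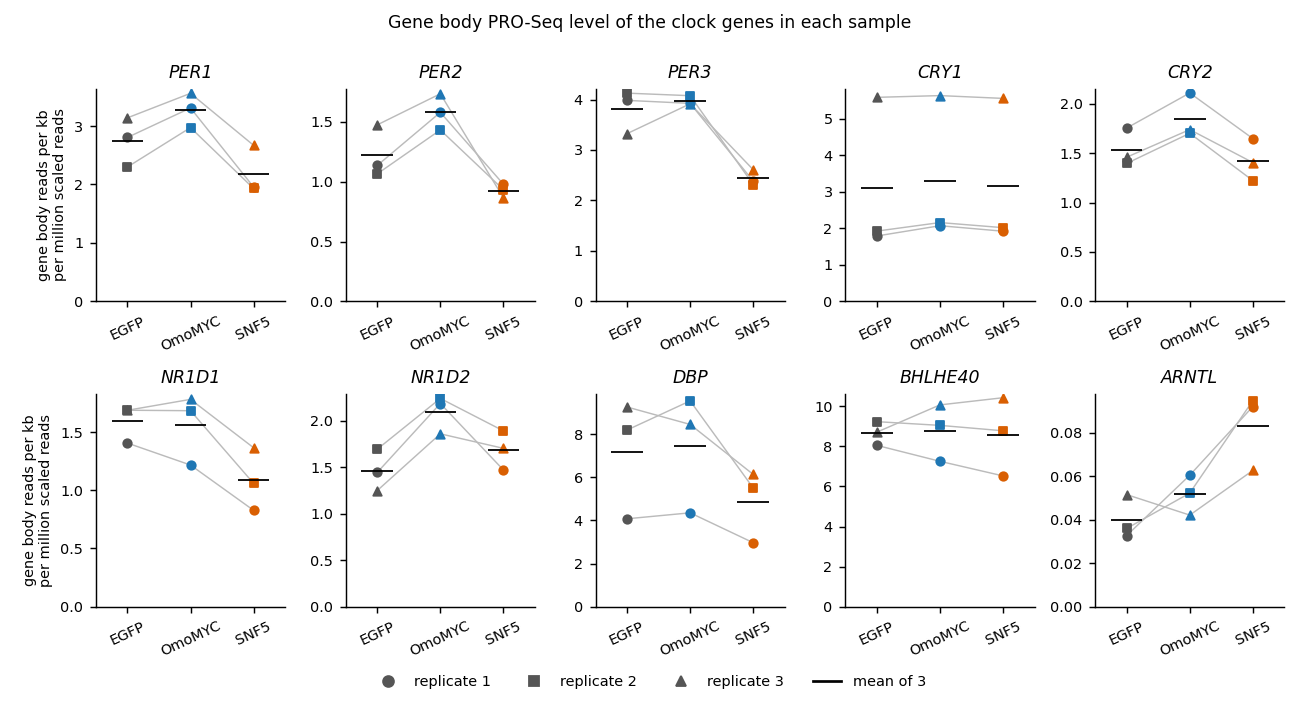
Gene body PRO-Seq level (vertical axis, RPKM, from 0) of each clock gene in the 3 EGFP, 3 OmoMYC and 3 SNF5 samples; marker shape gives the replicate number, grey lines join samples of the same number, and black bars are means of 3. With SNF5 the PER genes, CRY2, NR1D1 and DBP are lower than with EGFP in each replicate, and NR1D2 and ARNTL are higher. CRY1 separates replicate 3 from the others.

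With SNF5, all 3 PER genes, NR1D1 and DBP fell and ARNTL rose. Of the 10 genes, 5 had lower gene body counts with SNF5 than with EGFP at an adjusted p under 0.05, namely PER1, PER2, PER3, NR1D1 and DBP, 1 was higher, ARNTL, and 4 passed in neither direction. Among all 15060 genes tested, 16.5% were lower and 17.6% higher in this comparison. The median log2 fold change was −0.22 over the 10 genes and −0.03 over all genes.

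The PER genes encode the proteins that hold the repressor complex together. PER3 had 3.98, 4.13 and 3.32 RPKM with EGFP and 2.38, 2.31 and 2.61 with SNF5, so that the groups did not overlap. It fell to 0.641 of the EGFP level (log2 −0.64, SE 0.08, 95% interval −0.83 to −0.45, adjusted p = 0.00084), and was lower in each of the 3 replicate numbers. PER2 went from 1.14, 1.07 and 1.47 to 0.979, 0.933 and 0.865, again without overlap (log2 −0.39, SE 0.11, adjusted p = 0.020), and its drop was largest in replicate 3. PER1 had 2.80, 2.30 and 3.14 with EGFP and 1.96, 1.93 and 2.67 with SNF5, where replicate 3 with SNF5 reached the range of EGFP. It was nonetheless lower within each number and by the fit (log2 −0.33, SE 0.09, adjusted p = 0.017).

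The CRY genes, whose products are the repressing partners of PER, passed in neither direction with SNF5. CRY2 had 1.75, 1.40 and 1.46 with EGFP and 1.65, 1.22 and 1.40 with SNF5 (log2 −0.11, 95% interval −0.25 to 0.02, adjusted p = 0.18). For CRY1 the log2 difference was 0.05 with an interval from −0.07 to 0.17, so a change in CRY1 of the size seen for PER3 lies outside the interval. This holds only for the fit with the replicate block. Without the block the SE for CRY1 was 0.63 in place of 0.05.

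The 2 REV-ERB genes differed. NR1D1 had 1.41, 1.69 and 1.69 with EGFP and 0.828, 1.06 and 1.37 with SNF5, with every SNF5 sample below every EGFP sample, and fell to 0.672 of the EGFP level (log2 −0.57, SE 0.12, adjusted p = 0.0082). NR1D2 had 1.44, 1.69 and 1.25 with EGFP and 1.47, 1.89 and 1.70 with SNF5, and its log2 difference of 0.22 did not pass (SE 0.09, adjusted p = 0.098). NR1D1 overlaps THRA, on the opposite strand, at its 3′ end, and the sources used here do not state whether reads were counted by strand.

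Of the other E-box targets, DBP went from 4.08, 8.20 and 9.27 to 2.97, 5.51 and 6.14. The groups overlapped because replicate 1 was low in both, and within each number the fall was alike, at −0.46, −0.57 and −0.59 on the log2 scale (fit −0.55, SE 0.08, adjusted p = 0.0018). BHLHE40, the most transcribed of the 10, had 8.05, 9.24 and 8.72 with EGFP and 6.53, 8.78 and 10.4 with SNF5. Its log2 difference was −0.04 with an interval from −0.26 to 0.18.

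ARNTL rose. Its level was 0.0327, 0.0360 and 0.0516 with EGFP and 0.0922, 0.0949 and 0.0627 with SNF5, from 123, 116 and 259 and 404, 367 and 303 reads over a gene body of 108488 bp. The groups did not overlap, and the fold was 2.03 (log2 1.02, SE 0.24, 95% interval 0.47 to 1.57, adjusted p = 0.012). The rise was 1.49 and 1.40 in replicates 1 and 2 but 0.28 in replicate 3. In all, PER2, PER3 and NR1D1 had every SNF5 sample below every EGFP sample, which held for 8.07% of all genes, and ARNTL had every SNF5 sample above, which held for 11.0%.

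These calls rest on the pairing by replicate number. Without the replicate block PER3 alone passed with SNF5 (log2 −0.65), and without replicate 1, or without replicate 2, PER3 and DBP passed and PER1, PER2, NR1D1 and ARNTL did not, with the direction kept for all 6. Without replicate 3 these 6 passed, and CRY2 (log2 −0.15, adjusted p = 0.031) and BHLHE40 (−0.20, adjusted p = 0.031) passed as lower too. In that setting 4644 of 14939 genes were lower and 3847 higher. Without the block 7 of 15060 genes were lower and 218 higher. Without replicate 1 these numbers were 441 and 1232 of 15165 genes, and without replicate 2 they were 308 and 1122 of 14936.

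With OmoMYC, CRY2 and NR1D2 rose and no gene of the 10 passed as lower. Against EGFP, 2 of the 10 had higher gene body counts, CRY2 and NR1D2, and 0 had lower counts, against 4.10% higher and 4.42% lower of all genes. By DESeq2 the counts were 3 and 0 (6.60% higher and 6.94% lower of all genes), and at an unadjusted p under 0.05 they were 5 and 0 (13.7% and 15.4%). The median log2 fold change was 0.20 over the 10 genes and 0.00 over all genes. NR1D2 had 2.19, 2.24 and 1.86 with OmoMYC, every sample above the EGFP samples, which held for 5.97% of all genes, and rose 1.44-fold (log2 0.53, SE 0.09, adjusted p = 0.023). CRY2 had 2.11, 1.70 and 1.74, higher by nearly the same step in each replicate number (0.27, 0.28 and 0.25 on the log2 scale), with a fitted log2 fold change of 0.27 (SE 0.06, adjusted p = 0.033).

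PER2 and PER1 leaned the same way without passing. PER2 had 1.58, 1.43 and 1.73 with OmoMYC (log2 0.37, SE 0.11, adjusted p = 0.058; called by DESeq2) and PER1 3.31, 2.97 and 3.56 (log2 0.26, SE 0.09, adjusted p = 0.085). PER3, NR1D1, DBP and BHLHE40 had log2 differences between −0.04 and 0.06, and their intervals together ran from −0.32 to 0.25. ARNTL had 0.0605, 0.0523 and 0.0421, higher than EGFP in 2 of 3 numbers (log2 0.33, 95% interval −0.22 to 0.89, adjusted p = 0.40). Without replicate 1, or without replicate 2, or without the block, none of the 10 genes passed with OmoMYC. Over all genes, 2 of 15165, 2 of 14936 and 1 of 15060 were called as higher in these settings, and 0 as lower. Without replicate 3 there were 6 of the 10, all higher, against 3067 of 14939 genes higher and 3650 lower.

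The constructs were also compared directly, since the comparisons above share the EGFP samples. With SNF5 against OmoMYC, 7 of the 10 genes had lower gene body counts, PER1, PER2, PER3, CRY2, NR1D1, NR1D2 and DBP, and 0 had higher counts, against 7.38% lower and 11.5% higher of all genes. DESeq2 gave 7 lower and 1 higher, the latter ARNTL (8.03% lower and 12.2% higher of all genes), and at an unadjusted p under 0.05 the numbers were 7 and 1 (16.0% and 17.7%). The largest differences were those of PER2 (log2 −0.77, SE 0.11, adjusted p = 0.0016), PER3 (−0.70, SE 0.08, adjusted p = 0.00078) and DBP (−0.61, SE 0.08, adjusted p = 0.0016), followed by PER1 (−0.60, SE 0.09, adjusted p = 0.0020) and NR1D1 (−0.53, SE 0.12, adjusted p = 0.018). CRY2 differed by −0.38 and NR1D2 by −0.31. Every SNF5 sample was below every OmoMYC sample for PER1, PER2, PER3 and CRY2, which held for 6.16% of all genes. For ARNTL the log2 difference was 0.69 (SE 0.24, adjusted p = 0.074), with all SNF5 samples above all OmoMYC samples, which held for 8.43% of all genes. CRY1 and BHLHE40 differed by −0.08 and −0.04. Without replicate 1, or without replicate 2, PER1, PER2, PER3 and DBP still passed, and without the block PER3 alone did. Over all genes, 126 of 15165, 120 of 14936 and 6 of 15060 were lower in these settings, and 707, 628 and 69 higher.

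**Figure D4:**
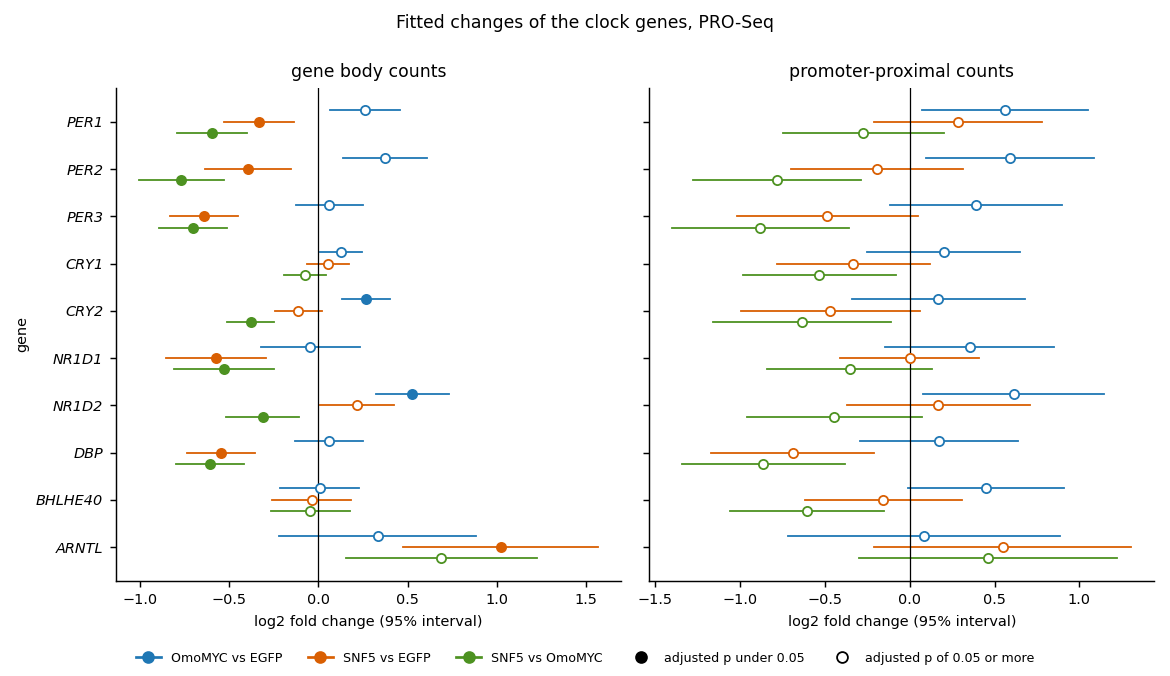
Fitted log2 fold changes with 95% intervals (horizontal axes) of the 10 clock genes (rows) in gene body counts (left) and promoter-proximal counts (right) for the 3 comparisons; filled points have an adjusted p under 0.05. In gene body counts SNF5 lies left of 0 for the PER genes, NR1D1 and DBP and right of 0 for ARNTL, and no promoter-proximal point is filled.

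At the promoters, no single gene was separated at this depth. None of the 10 genes passed the test of promoter-proximal counts in any comparison, against 1.72% of 11241 genes for OmoMYC, 4.22% for SNF5 and 0.836% for SNF5 against OmoMYC. At an unadjusted p under 0.05 there were 3 higher with OmoMYC (12.7% of all genes), 1 lower with SNF5 (10.5%) and 6 lower with SNF5 against OmoMYC (11.4%). DESeq2 called 0 in all 3 comparisons, against 1.14%, 2.78% and 0.543% of all genes. The median log2 fold change of the 10 genes was 0.37 with OmoMYC, −0.17 with SNF5 and −0.57 for SNF5 against OmoMYC. Over all genes these medians were 0.13, −0.05 and −0.17. Counts were small, with 3 to 118 reads per gene in the replicate 1 libraries. The nearest to passing was DBP, with 2.28, 2.05 and 3.63 promoter-proximal RPM (reads scaled by the same library total) with EGFP, 2.83, 3.09 and 2.90 with OmoMYC and 1.78, 1.09 and 2.04 with SNF5, a log2 difference of −0.69 with SNF5 against EGFP (SE 0.24, adjusted p = 0.087) and of −0.86 against OmoMYC (SE 0.24, adjusted p = 0.073). With promoter-proximal counts scaled by their own totals DBP passed against EGFP, as it did without replicate 1. PER2 had 0.260, 2.73 and 2.40 with EGFP, 0.578, 4.35 and 2.94 with OmoMYC and 0.247, 2.10 and 2.29 with SNF5, where the replicate number moved the level far more than the construct did. For ARNTL, at 3, 14 and 33 reads with EGFP and 3, 47 and 29 with SNF5, the interval of the log2 difference ran from −0.21 to 1.31, and its direction turned without replicate 2 (−0.14) while it passed as higher without replicate 3 (1.24).

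The pausing index, the density of reads in the promoter-proximal window over that in the gene body, likewise passed for none of the 10 genes, against 2.01% of 11171 genes with OmoMYC, 3.65% with SNF5 and 1.15% for SNF5 against OmoMYC. At an unadjusted p under 0.05 there were 0 with OmoMYC (15.4% of all genes in either direction), 1 higher with SNF5 (10.6%) and 1 lower with SNF5 against OmoMYC, BHLHE40 (11.0%), and DESeq2 called 0 in each, against 0.421%, 0.904% and 0.358%. The 1 with SNF5 was PER1, with an index of 5.76, 12.6 and 7.43 with EGFP and of 11.4, 17.7 and 9.92 with SNF5 (log2 0.61, SE 0.27, adjusted p = 0.19). ARNTL had the highest indices of the 10 genes with EGFP, 52.9, 262 and 276, and had 16.1, 278 and 208 with SNF5, while CRY1 had 22.9, 180 and 65.3 with EGFP. For all genes the median log2 difference with OmoMYC was 0.13 in promoter-proximal counts and 0.14 in pausing index, and −0.03 and −0.01 once each region was scaled by its own total, so small shifts of single genes there depend on the scaling.

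Of 19 core and accessory clock genes beside these, 16 passed the filter on gene body counts, and with SNF5 4 were higher and 3 lower, shares close to the 17.6% higher and 16.5% lower of all genes. The higher ones included NPAS2, a partner of BMAL1 in place of CLOCK (log2 1.46, SE 0.35, adjusted p = 0.013, at a mean level of 0.00179 with EGFP and 0.00473 with SNF5, close to no transcription), and ARNTL2 (0.36, SE 0.09, adjusted p = 0.012). NFIL3, a repressor that binds the sites of DBP, rose (0.99, SE 0.26, adjusted p = 0.019). TEF, a relative of DBP (−0.35, SE 0.08, adjusted p = 0.0096), TIMELESS (−0.55, SE 0.09, adjusted p = 0.0028), a replication fork protein, and CSNK1E, a kinase that marks PER for degradation (−0.25, SE 0.07, adjusted p = 0.018), fell. CLOCK itself had 1.29, 1.33 and 1.26 RPKM with EGFP, 1.19, 1.20 and 1.23 with OmoMYC and 1.27, 1.24 and 1.29 with SNF5. The median log2 fold change of the 16 was 0.00.

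With OmoMYC, 1 of the 16 was higher, USP2, a ubiquitin protease under clock control (0.43, SE 0.10, adjusted p = 0.033), and 0 were lower, against 4.10% and 4.42% of all genes. At an unadjusted p under 0.05, 6 were higher and 1 lower, against 13.7% and 15.4% of all genes. Against OmoMYC, 5 were lower with SNF5 (RORA, TEF, HLF, TIMELESS and USP2) and 0 higher, against 7.38% lower and 11.5% higher of all genes. At an unadjusted p under 0.05, 7 were lower and 1 higher, against 16.0% and 17.7% of all genes. In promoter-proximal counts, 14 of the 19 were tested and 1 was called in any comparison, HLF, another relative of DBP, with OmoMYC (1.43, SE 0.36, adjusted p = 0.034). RORB, CIART (listed as C1orf51) and FBXL21 had too few gene body reads. Of 6 output genes (WEE1, NAMPT, CDKN1A, PPARA, ALAS1 and NOCT, listed as CCRN4L), 1 was higher with SNF5, PPARA, a nuclear receptor of lipid metabolism (0.54, SE 0.14, adjusted p = 0.017), 1 with OmoMYC, CCRN4L, the gene for nocturnin (0.38, SE 0.07, adjusted p = 0.026), and 1 with SNF5 against OmoMYC, CDKN1A (0.20, SE 0.06, adjusted p = 0.036). None of the 6 was lower in any of these comparisons, and over all genes 17.6%, 4.10% and 11.5% were higher in these 3 comparisons.

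The binding and transcription of each gene can be set side by side. All 5 genes that fell with SNF5 had a MYC summit within 1 kb in EGFP replicate 2, as did 4511 of 15060 genes. They had none within that distance in an SNF5 list, where NR1D1 kept its intronic summit in replicate 1. Of all genes, 0.79% and 0.106% had one in SNF5 replicates 1 and 2. The same binding was seen at CRY1, CRY2, NR1D2 and BHLHE40, which did not pass with SNF5. The OmoMYC lists held 0 peaks, and none of the 5 genes passed as lower with OmoMYC. A summit missing from a list was not called there, which does not show that MYC was absent. The log2 differences of these 5 genes between OmoMYC and EGFP were 0.26 (PER1), 0.37 (PER2), 0.06 (PER3), −0.04 (NR1D1) and 0.06 (DBP). NR1D2, the only gene with a summit within 1 kb in both EGFP samples, was higher with OmoMYC. ARNTL had no MYC summit from 10 kb before to 10 kb after it, and was called as higher with SNF5. No test was made of this relation over 10 genes.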

How the data were processed

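The clock genes were chosen by name, and the members and gene lists were picked with earlier results of these data known. Gene body and promoter-proximal values are raw counts deposited by the authors, who trimmed reads with cutadapt, reverse complemented those over 15 bp, aligned them to hg19 with Bowtie2, removed rRNA reads and mapping qualities under 10, and counted per RefSeq transcript with NRSA; the gene body signal, a density in reads per bp, is also deposited by the authors and served only to check gene body lengths. Peak lists were deposited by the authors as called per sample with MACS2 at q-values of 0.01 (MYC, hg19) and 0.001 (ATAC, hg38), and give fold ratios over local background and −log10 p- and q-values but no counts. Authors' consensus peaks and IgG samples were not used here.

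One transcript per symbol was kept, the one with most reads. Counts of all 9 libraries were fitted together with edgeR 4.0.16 (quasi-likelihood test, R 4.3.3), the replicate number as a block, and gene body totals times RLE factors as offsets for both regions. Genes needed a mean of 10 counts. A change in pausing index was fitted over both regions as the construct-by-region interaction, with sample terms and a block for each region. Calls were made at a Benjamini-Hochberg adjusted p of 0.05 over all genes tested. Replicate numbers were taken to pair samples because the authors' own test accounted for a batch effect and because libraries of the same number deviated together from their construct means. Correlations across genes ran from 0.753 to 0.882 for the same number and from −0.668 to 0.126 otherwise in gene body counts, and from 0.689 to 0.849 and −0.606 to −0.058 in promoter-proximal counts. Deviations cancel out within a construct, so the low values between other numbers are partly built in. The labels do not say what a number shares, nor whether samples are separate cultures. P-values therefore measure only the spread between these samples that is left once differences between replicate numbers are removed. Fits were also run on simulated counts with a fixed spread and replicate effects shared by all constructs, a simpler setting than these data.

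MYC summits were placed by the hg19 starts in the PRO-Seq table, locations by GENCODE transcripts in GRCh37, and ATAC peaks by RefSeq GRCh38 starts, found for 15437 genes; no coordinate was converted. Peak presence was compared without a test, since 3 samples against 3 cannot go below an exact permutation p of 0.1. All 10 genes, named lists and markers are reported, except that 1 listed gene and the sequences under some peaks are not reported here. Alternatives were TMM scaling, own scaling per region, DESeq2 1.42.0, no filter, a mean of 50 counts, no replicate block, each replicate left out, and other peak distances, thresholds and overlaps. Other calculations used Python with pandas 2.3.3, NumPy 2.4.6 and SciPy 1.17.1.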

Additional observations from a re-analysis of the deposited data

How the results depend on the processing

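The calls depended most on the replicate block and on single replicates. Without the replicate block, 1, 225 and 75 genes were called in gene body counts for OmoMYC against EGFP, SNF5 against EGFP and SNF5 against OmoMYC, in place of 1284, 5131 and 2848, and 0 in promoter-proximal counts and in pausing index in all 3 comparisons; of the 10 clock genes 0, 1 and 1 (PER3) were called in gene body counts. Leaving out 1 replicate gave 2 to 6717, 1430 to 8491 and 748 to 6230 genes in gene body counts, 3 to 894, 45 to 997 and 20 to 497 in promoter-proximal counts, and 0 to 964, 9 to 618 and 5 to 431 in pausing index. The highest came without replicate 3, except without replicate 1 for SNF5 against EGFP in promoter-proximal counts and pausing index. For the 10 clock genes the ranges were 0 to 6, 2 to 8 and 4 to 9 in gene body counts, and 0 to 1 and 0 to 2 for SNF5 against EGFP and against OmoMYC in promoter-proximal counts. DESeq2 called 2039 genes in gene body counts with OmoMYC, 128, 313 and 61 in place of 193, 474 and 94 in promoter-proximal counts, and 47, 101 and 40 in place of 225, 408 and 128 in pausing index. With no filter the promoter-proximal numbers were 306, 774 and 258, with 2 clock genes called for SNF5 against OmoMYC (DBP and PER3), and with a mean of at least 50 counts 311 and 36 genes for the comparisons with SNF5. With each region scaled by its own total, SNF5 against EGFP gave 993 genes, DBP (1 of 10) among them, in promoter-proximal counts and 818 in pausing index. A MYC summit in both EGFP samples was found for 1 clock gene within 1 kb, for 2 within 5 kb, and for 1 to 9 with an EGFP sample left out. Over the 10 genes' gene body values, 192 of the alternatives kept direction and side of the threshold, 31 lost the call, 11 gained one and 6 changed sign. None of these 6 was called. With 1 replicate left out, the log2 difference with OmoMYC ran from −0.0258 (without replicate 3) to 0.115 for PER3, from −0.110 to 0.0364 (without replicate 1) for NR1D1, from −0.0122 (without replicate 2) to 0.159 for DBP and from −0.0966 (without replicate 3) to 0.0886 for BHLHE40, which was −0.0016 with TMM scaling; with SNF5 that of BHLHE40 ran from −0.196 to 0.0885 (without replicate 1). In promoter-proximal counts, that of ARNTL with SNF5 ran from −0.139 (without replicate 2) to 1.24 (without replicate 3). Where no cause is given by fewer genes or samples in the alternative itself, the cause was not tested.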
